A study of Mus musculus with 4 samples.

Results

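The genes described are 9 components of the Hedgehog signalling pathway in the frontonasal prominence (FNP) of mouse embryos, listed by symbol. They are the ligand *Shh*, the receptor *Ptch1*, the signal transducer *Smo*, the co-receptors *Cdon* and *Gas1*, the ligand-binding inhibitor *Hhip* and the transcription factors *Gli1*, *Gli2* and *Gli3*. All 9 were found among the 33708 genes of the deposited table, and each passed the limit of 10 reads in WT or in MD43, as did 15377 genes of the table. The FNP is the tissue in front of the developing forebrain that forms the forehead, the middle of the nose and part of the upper lip. It was dissected at E10.5 of gestation from FVB/NJ embryos of 29 somites. The WT group was 2 *Smchd1*+/+ embryos, a female and a male by their labels, although a supplementary record of the study names both as female, and the MD43 group was 2 male embryos homozygous for *MommeD43*, a missense allele of *Smchd1* made by chemical mutagenesis. The gene encodes a chromatin protein needed for X inactivation and for silencing of some gene clusters. One WT and 1 MD43 embryo came from the same mother. The animals carried the allele in every cell, and no transgene or Cre was named for them. Poly(A) RNA was sequenced, and each genotype has 1 value per gene, the mean of the log2 RPKM values (reads per kilobase of transcript and per 1000000 reads) of its 2 libraries. No replicate error and no test of a difference between the genotypes could be computed from these merged values, and sex cannot be told apart from genotype. The errors given cover the counting of reads alone and are lower limits.

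In Hedgehog signalling the secreted ligand binds Patched receptors, which otherwise keep Smoothened, the product of *Smo*, inactive. CDON, BOC and GAS1 bind the ligand together with Patched and are known to be lowered by signalling, whereas HHIP traps the ligand. Smoothened acts at the primary cilium on the GLI factors: GLI2 is the main activator, GLI3 the main repressor, and *Gli1*, *Ptch1* and *Hhip* are classical genes that signalling switches on. In the face, SHH from the forebrain and the facial ectoderm acts on neural crest-derived mesenchyme and controls how wide the midface becomes.

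The upstream sequences of *Ptch1* and *Hhip* are shown because both are target genes and both had lower values in MD43. Each is the stretch of 250 bases before the RefSeq start (GRCm38.p6), read 5′ to 3′ on the minus strand, and neither overlaps an annotated exon of its gene. Capitals mark CpG dinucleotides, the sites of DNA methylation. The *Ptch1* stretch, at chr13:63565736-63565985, lies inside the annotated span of the gene, upstream of the first exon of 1 of its transcripts. The *Hhip* stretch, at chr8:80058009-80058258, lies outside its gene.
Ptch1: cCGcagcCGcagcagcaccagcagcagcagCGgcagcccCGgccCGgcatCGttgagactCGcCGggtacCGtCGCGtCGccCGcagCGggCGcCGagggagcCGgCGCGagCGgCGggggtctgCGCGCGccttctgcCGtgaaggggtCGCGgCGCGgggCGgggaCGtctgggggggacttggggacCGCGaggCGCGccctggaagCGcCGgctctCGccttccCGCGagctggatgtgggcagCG
Hhip: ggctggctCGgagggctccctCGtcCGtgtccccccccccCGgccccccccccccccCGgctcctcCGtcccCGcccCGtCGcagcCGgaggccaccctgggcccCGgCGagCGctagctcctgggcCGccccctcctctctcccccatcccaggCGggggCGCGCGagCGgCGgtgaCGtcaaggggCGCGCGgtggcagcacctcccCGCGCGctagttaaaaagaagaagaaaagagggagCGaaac

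The *Ptch1* sequence held 41 CpGs and the *Hhip* sequence 28. Over the whole window of 300 bases, which runs 50 bases past the start, *Ptch1* had 47 CpGs, more than 98.6% of 32851 windows, and *Gli3* had 39, more than 95.6%. The median of all windows was 7. The other windows held 30 CpGs in *Hhip*, 28 in *Gli2*, 17 each in *Smo* and *Gas1*, and 3 in *Cdon*. The *Cdon* window, at chr9:35451826-35452125, lies inside the annotated span of the gene, which begins at 35421128. Its count therefore does not describe the beginning of that span. The bases at the end of the *Gas1* window matched no annotated transcript of the gene. Windows were available for 7 of the 9 genes and not for *Shh* and *Gli1*. The GLI-binding word GACCACCCA was searched on both strands (as TGGGTGGTC on the other) and was in 0 of these 7 windows and in 83 of all windows (0.253%). The absence of these letters from so short a window says nothing about GLI binding.

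The order of the 9 genes by RPKM was the same in both genotypes. *Gas1* stood highest, at 40.3 RPKM in WT and 50.1 in MD43, followed by *Smo*, *Gli3*, *Cdon*, *Gli2*, *Ptch1*, *Gli1* and *Shh*, and *Hhip* stood lowest at 0.432 and 0.260 RPKM. The components that receive and transduce the signal were thus more abundant than the ligand: the *Gas1* level was 6.75 times that of *Shh* in WT and 10.6 times in MD43. Whether neighbours in this order differ beyond the spread between embryos could not be tested.

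**Figure D1:**
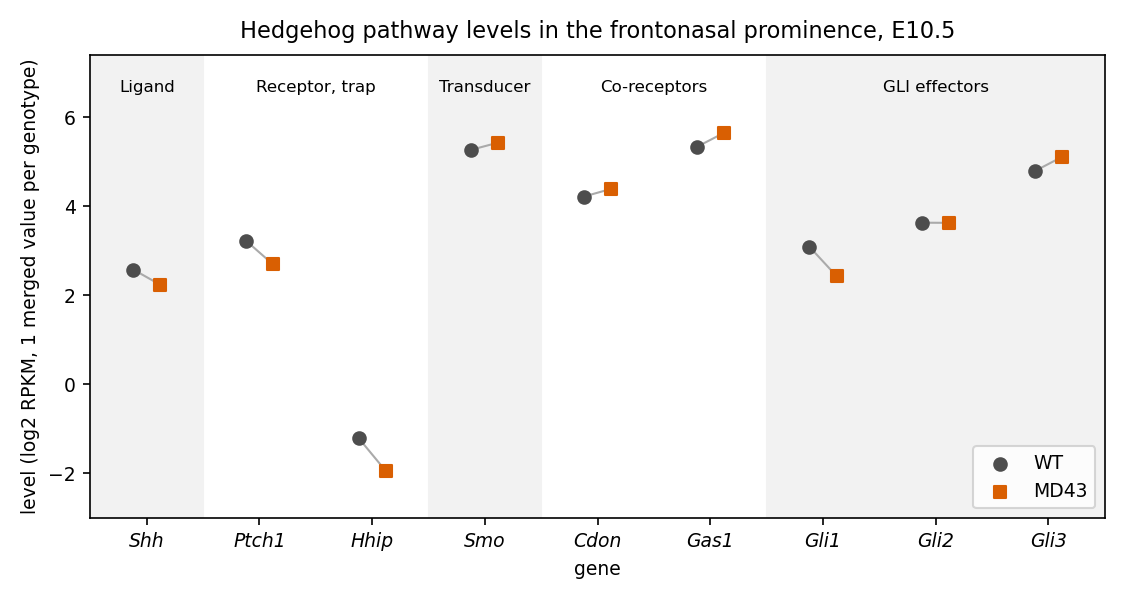
Level of each Hedgehog pathway gene in the FNP (y axis, log2 RPKM) for WT (grey circles) and MD43 (orange squares), with 1 merged value per genotype and no error bar, grouped by role along the x axis. The circle stands above the square for *Shh*, *Ptch1*, *Hhip* and *Gli1*, the square stands above for *Smo*, *Cdon*, *Gas1* and *Gli3*, and *Gli2* is level.

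The ligand *Shh*, the receptor and target *Ptch1*, and the targets *Gli1* and *Hhip* had lower values in MD43, whereas *Smo*, *Cdon*, *Gas1* and *Gli3* had higher values. *Gli2* was at 3.63 log2 RPKM in both. None of the 9 genes differed by 2-fold in either direction, where 2.47% of the 15377 genes tested passed that limit downwards in MD43 and 1.64% upwards. At 1.5-fold, 2 of the 9 were lower (*Hhip* and *Gli1*), against 6.43% of the genes tested, and 0 were higher, against 4.24%. Genes with few reads pass a fold limit more easily. When 50 reads were required in WT and in MD43, which all 9 reached, 11982 genes were left, of which 2.70% passed 1.5-fold downwards and 0.843% upwards. The median log2 difference (MD43 minus WT) of all genes tested was 0.01. Markers of the hypothalamus and diencephalon were lower in MD43 as well (-57.3% in sum) and those of surface ectoderm higher (51.5% more), and their part in these differences was not tested.

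The ligand *Shh* (chromosome 5, 28456815 to 28467256, minus strand) had a value of 2.58 log2 RPKM in WT and 2.24 in MD43. The log2 difference was -0.34 ± 0.09 (counting SE), with a 95% counting interval of -0.51 to -0.17. It rested on a geometric mean of 273 reads per library in WT and 299 in MD43.

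*Ptch1* (chromosome 13, 63508328 to 63573598, minus strand), which encodes the receptor that holds Smoothened in check, was at 3.23 log2 RPKM in WT and 2.69 in MD43. The log2 difference was -0.53 ± 0.03 (counting SE, interval -0.59 to -0.47), or 1.45-fold lower. With 2133 and 2050 reads, counting contributed little to its error. *Smo* (chromosome 6, 29735503 to 29761365, plus strand), on which PTCH1 acts, was at 5.27 log2 RPKM in WT and 5.43 in MD43, a log2 difference of 0.16 ± 0.02 (counting SE). The *Ptch1* level was 0.243 times the *Smo* level in WT and 0.150 times in MD43. The log2 difference of *Ptch1* was 0.69 below that of *Smo*, with a counting interval of -0.77 to -0.62.

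*Hhip* (chromosome 8, 79965851 to 80058006, minus strand), whose product binds the ligand at the cell surface and blocks it, had a value of -1.21 log2 RPKM in WT and -1.94 in MD43. Its log2 difference of -0.73 was the lowest of the 9, but it rested on 63.0 reads in WT and 52.6 in MD43, and its counting SE of 0.19 gave an interval from -1.11 to -0.36. *Hhip* and *Gli1* were not separated by counting, with a difference of -0.08 ± 0.20 (counting SE) between their log2 differences.

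Both co-receptors had higher values in MD43. *Cdon* (chromosome 9, 35421128 to 35507652, plus strand) was at 4.22 log2 RPKM in WT and 4.39 in MD43, a log2 difference of 0.17 ± 0.03 (counting SE). *Gas1* (chromosome 13, 60174405 to 60177365, minus strand) was at 5.33 log2 RPKM in WT and 5.65 in MD43, a log2 difference of 0.31 ± 0.03 (counting SE). *Boc*, the third co-receptor, also had a higher value, at 3.52 log2 RPKM in WT and 3.94 in MD43 (log2 difference 0.41, counting interval 0.33 to 0.50).

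The 3 effectors differed from each other. *Gli1* (chromosome 10, 127329882 to 127341974, minus strand), the activator that is itself a target, was at 3.09 log2 RPKM in WT and 2.43 in MD43. Its log2 difference was -0.66 ± 0.06 (counting SE, interval -0.77 to -0.55), or 1.58-fold lower, on 683 and 602 reads. *Gli2* (chromosome 1, 118834132 to 119053619, minus strand) differed by -0.00 on the log2 scale (counting interval -0.07 to 0.07), which bounds counting error and not the spread between embryos. *Gli3* (chromosome 13, 15463235 to 15730026, plus strand) was at 4.79 log2 RPKM in WT and 5.11 in MD43, a log2 difference of 0.32 ± 0.02 (counting SE), on 4261 and 7385 reads. The *Gli3* level was 3.25 times the *Gli1* level in WT and 6.39 times in MD43, and the *Gli2* level was 1.45 times and 2.29 times the *Gli1* level. *Gas1* and *Gli3*, both on chromosome 13, had log2 differences that agreed to within the counting error, while *Ptch1* on the same chromosome differed in the opposite direction.

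**Figure D2:**
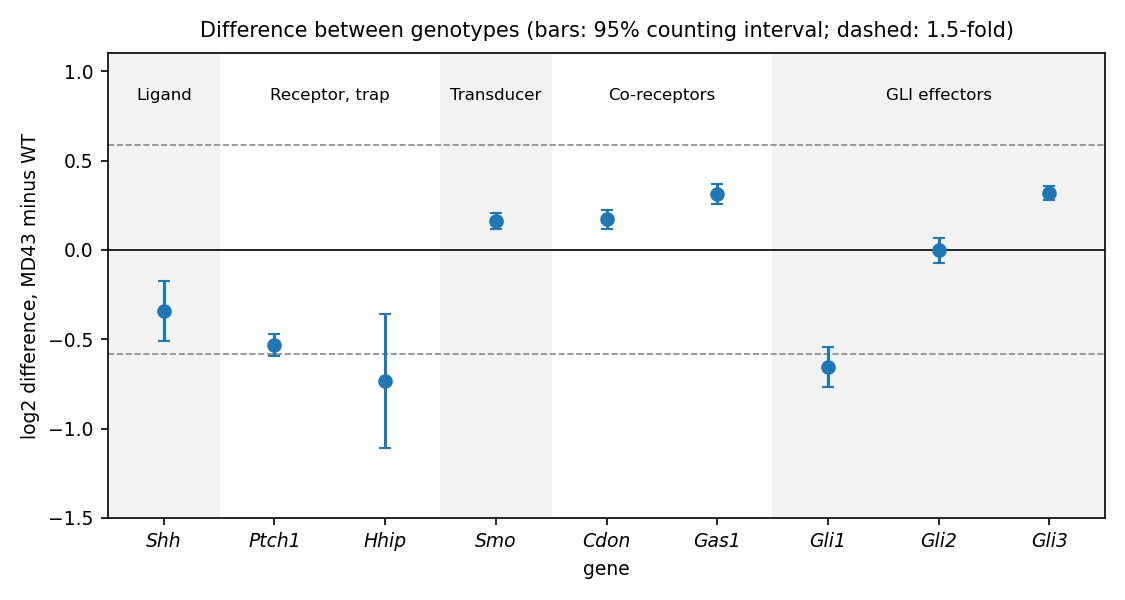
Log2 difference (MD43 minus WT) of each gene, with bars for the 95% counting interval and dashed lines at 1.5-fold. *Hhip* (-0.73) and *Gli1* (-0.66) lie past the lower line, *Ptch1* (-0.53) and *Shh* (-0.34) lie between it and 0, and the interval covers 0 for *Gli2* alone. The bars leave out the spread between embryos.

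The spread between the 2 embryos of a genotype can be recovered for some genes. A merged value fixes what the counts of both libraries multiply to, and a small product allows only a few pairs of whole numbers. Pairs were limited to counts less than 4-fold apart. Among genes with a single such pair, the 2 libraries of MD43 differed in depth by 1.53-fold and those of WT by 1.38-fold. Which count belongs to which embryo is not known, and levels below place the larger count in the deeper library unless stated otherwise.

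The *Shh* product in WT had a single pair, 238 and 313 reads, which is 17.4 and 16.6 RPM (reads per 1000000 reads of the library), so that the 2 WT levels were within 1.05-fold. In MD43 5 pairs were possible. Their levels ran from 13.8 and 13.1 RPM (249 and 360 reads) to 9.18 and 19.6 (166 and 540 reads). Both MD43 levels lay below both WT levels for 3 of the 5 pairs, and the groups overlapped for the other 2. With the larger WT count in the shallower library, the WT levels would be 22.9 and 12.6 RPM and would overlap with MD43.

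By its recovered pairs, and if its WT product is whole for no other reason, *Gli1* differed between the WT embryos as much as between the genotypes. Its WT product allowed 446 and 1045 reads or 418 and 1115 reads, and no pair with closer counts. The levels were then 32.6 and 55.4 RPM, or 30.6 and 59.1, at least 1.70-fold apart, where the merged genotype values were 1.58-fold apart. The MD43 product had a single pair, 476 and 761 reads, or 26.3 and 27.6 RPM. Both MD43 levels were thus below the lower WT level, at 30.6 or 32.6 RPM, and far below the higher one, at 59.1 or 55.4. With the larger MD43 count in the shallower library, the MD43 levels would be 42.1 and 17.3 RPM and the groups would overlap. With the larger WT count in the shallower library, the WT levels would be 76.5 and 23.6 RPM, or 81.6 and 22.2. The lower WT level would then be below both MD43 levels of 26.3 and 27.6 RPM, so the separation rests on the assumed placement. A count ratio as large as that of *Gli1* was found for 17 of 1130 WT genes of similar depth with a single pair.

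For *Hhip* the WT pairs were 49 and 81 reads (3.59 and 4.29 RPM) or 63 in each library (4.61 and 3.34). The 5 MD43 pairs gave levels between 1.55 and 3.59 RPM, and in 4 of them both levels were below both WT levels. With the larger MD43 count in the shallower library, the higher MD43 level would be 3.49 to 5.48 RPM and would overlap with the WT levels of 4.61 and 3.34 for each of the 5 pairs, so the separation rests on the assumed placement. The products of *Ptch1*, *Smo*, *Cdon*, *Gas1*, *Gli2* and *Gli3* were too large to be resolved.

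**Figure D3:**
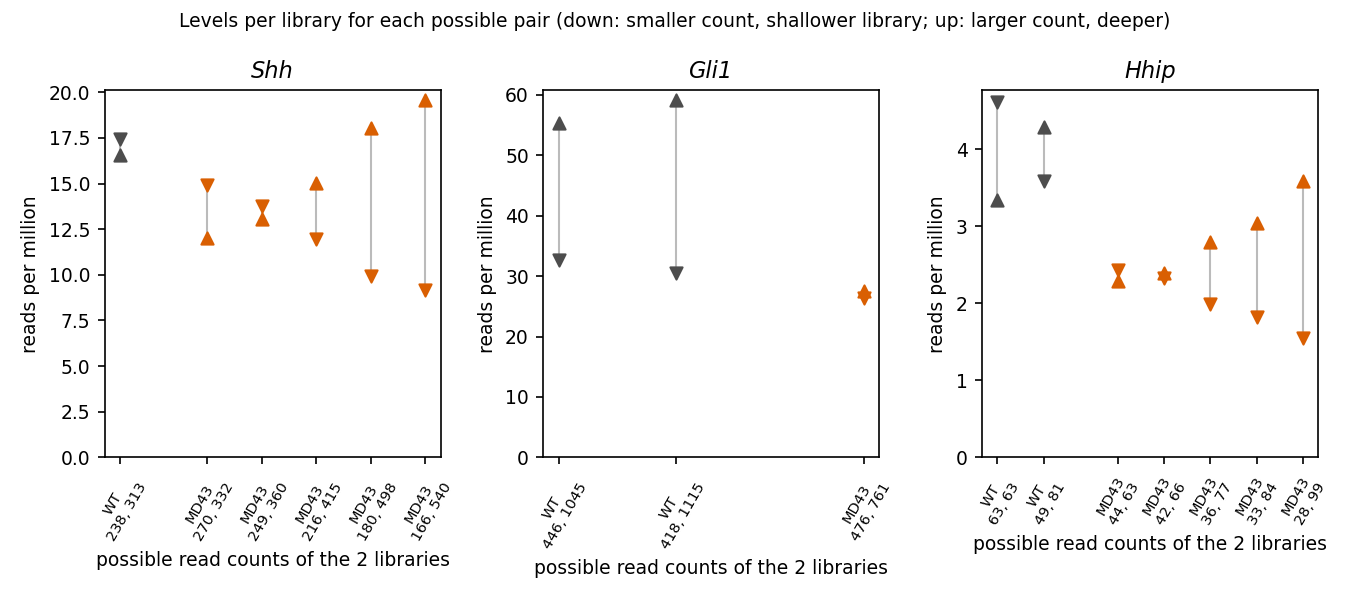
RPM (y axis) in the 2 libraries of WT (grey) and MD43 (orange) for each pair of read counts that the merged values of *Shh*, *Gli1* and *Hhip* allow (x axis, the 2 counts). Downward triangles are the smaller count in the shallower library, upward triangles the larger count in the deeper one. For *Gli1* the 2 WT levels are at least 1.70-fold apart, while the MD43 levels, 26.3 and 27.6, nearly coincide.

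Over all genes with a single pair and between 316 and 1000 reads, the log2 ratio of the 2 libraries had an SD of 0.32 in WT and 0.21 in MD43, around 0.08 being due to counting. A difference of 2 merged values of such genes then has an SD of 0.19, and of 0.26 between 100 and 316 reads and 0.32 between 32 and 100 reads. Against these values, taken over many genes and not measured for the gene itself, the log2 difference of *Gli1* (-0.66) exceeded the SD of 0.19. By its recovered pairs, however, *Gli1* itself varied more between the WT embryos than such genes do. That of *Hhip* was -0.73 against an SD of 0.32, and that of *Shh* was -0.34 against an SD of 0.26. The spread was not measured above 1000 reads, where *Ptch1*, *Smo*, *Cdon*, *Gas1*, *Gli2* and *Gli3* lie. The counting intervals of *Smo* and *Cdon* exclude 0, but their log2 differences, 0.16 and 0.17, were smaller than the SD of 0.19 for genes of 316 to 1000 reads.

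The rest of the pathway was read from 6 lists of 59 other genes, of which 56 were tested. Of these, 35 had lower and 21 higher values in MD43 (62.5% lower, against 48.8% of all genes tested). At least 2-fold lower were 6 (10.7%, against 2.47% of all genes) and at least 2-fold higher was 1 (1.79%, against 1.64%). The lists were chosen with earlier results of these data known, so these percentages are not an independent test. The read limit could also be reached in either genotype. *Nkx6-1* reached it in WT alone (38.7 reads, 3.46 in MD43). *Foxa2*, the gene at least 2-fold higher, reached it in MD43 alone (19.8 reads, 4.24 in WT). Of the 6 genes at least 2-fold lower, 3 were ventral neural genes that SHH induces and 1 was a neural gene that SHH represses. *Scube2*, *Nkx2-2*, *Nkx2-9* and *Nkx6-1* had fewer than 50 reads in MD43, and genes with few reads pass a fold limit more easily. *Foxd1* and *Dbx1* reached 50 reads in WT and in MD43, where 71 of 11982 genes were at least 2-fold lower.

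Among the genes for ligands and their release, 2 of 5 tested were lower and 3 higher, with a median log2 difference of 0.12. *Scube2*, whose product helps to release the ligand, was past 2-fold, at -0.97 log2 RPKM in WT and -2.02 in MD43 (log2 difference -1.05, counting interval -1.59 to -0.51, on 34.1 and 22.9 reads). *Ihh* and *Dhh*, the other ligands of the family, were near the limit of detection, with *Dhh* at 0.949 reads in WT and 5.74 in MD43; neither passed the limit of 10 reads.

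Of the other genes of ligand reception, *Lrp2*, an endocytic receptor for SHH in the forebrain, was at 2.35 and 2.16 log2 RPKM (log2 difference -0.19). *Boc* is given above.

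The 27 genes that carry the signal through the cilium to GLI were close to level, 16 lower and 11 higher, with a median log2 difference of -0.03 and 0 past 2-fold. They ran from -0.26 for *Mks1*, a component of the ciliary transition zone, to 0.35 for *Kif7*, a ciliary kinesin that regulates GLI.

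Of 10 targets in facial mesenchyme and cell division, 6 were lower and 4 higher (median -0.15). *Foxd1*, a forkhead factor, was at 2.16 log2 RPKM in WT and 0.72 in MD43 (log2 difference -1.44, counting interval -1.62 to -1.26, on 364 and 186 reads). The highest of the list was *Foxf1*, a forkhead gene that is a Hedgehog target in mesenchyme, at 0.58 and 1.29 log2 RPKM (log2 difference 0.71). The list thus held values in both directions, where *Gli1*, *Ptch1* and *Hhip* were all lower.

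Ventral neural genes that SHH induces had the lowest median of the 6 pathway lists, -0.60, with 6 of 7 lower, beside the lower hypothalamus and diencephalon markers described later. *Nkx2-2*, a marker of ventral neural progenitors, was at 0.41 log2 RPKM in WT and -2.42 in MD43 (log2 difference -2.83, counting interval -3.46 to -2.20). *Nkx6-1* (log2 difference -3.96) rested on 38.7 reads in WT and 3.46 in MD43, and *Nkx2-9* (-1.02) on 31.0 and 21.2 reads. *Foxa2*, the floor plate factor, differed in the other direction (1.74, on 4.24 reads in WT and 19.8 in MD43). *Nkx2-1*, at 3.80 and 3.35 log2 RPKM, and *Olig2*, at 3.40 and 2.80, had the most reads of the lower genes. Of the 4 tested neural genes that SHH represses, 3 were also lower (median -0.26). *Dbx1*, an interneuron progenitor gene, was at 1.96 and 0.56 log2 RPKM (log2 difference -1.40), and *Pax7*, a dorsal gene, at 2.45 and 2.83 (0.39).

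**Figure D4:**
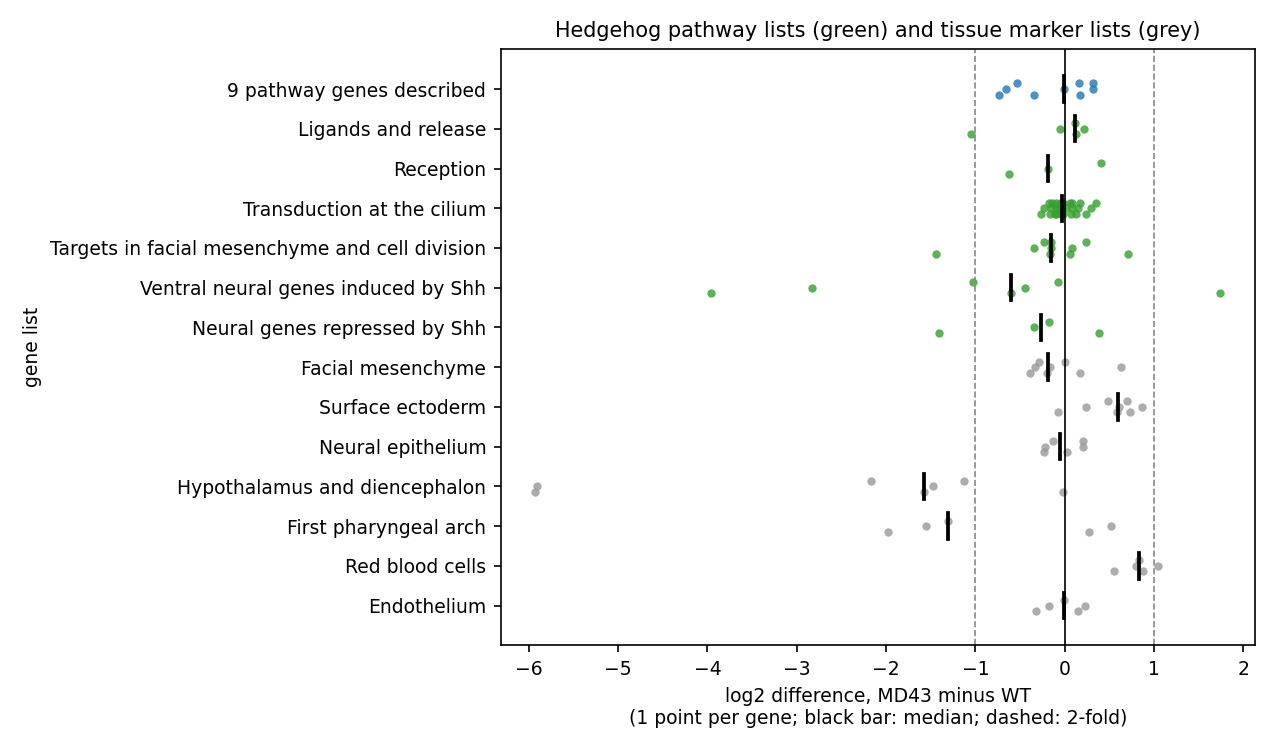
Log2 difference (MD43 minus WT, x axis) of the 9 genes (blue), of 6 lists of other Hedgehog pathway genes (green) and of 7 lists of tissue markers (grey), with 1 point per tested gene, black bars at the medians and dashed lines at 2-fold. The cilium list is tight around 0, the ventral neural list has its median at -0.60, and the hypothalamus and diencephalon markers have theirs at -1.57.

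Some lists of tissue markers also differed between the genotypes, and others were close to level. Fewer cells of a type cannot be told apart from less RNA per cell in whole tissue. All 8 facial mesenchyme genes were detected, with a median of 3.98 log2 RPKM in WT and 3.88 in MD43, and 5 of them were lower (median log2 difference -0.19). Their detection alone does not check the tissue label. The neural epithelium markers had a higher median, 5.22 log2 RPKM in WT and 5.21 in MD43. Of the first pharyngeal arch markers, 3 of the 5 tested were lower, each by at least 2-fold, against 2.47% of all genes tested. The median log2 difference of the 5 was -1.30. The 3 had few reads in MD43: 18.0 for *Barx1*, 33.2 for *Lhx6* and 35.5 for *Lhx8*. The other 2, *Dlx5* (log2 difference 0.52) and *Dlx6* (0.27), were higher and had the most reads of the list. The summed level of the arch markers was thus 31.9 RPM in WT and 29.6 in MD43. *Hand2* was near 0 with 1.34 and 1.90 reads. All 7 hypothalamus and diencephalon markers tested were lower in MD43, but *Six6* by a log2 difference of -0.02 only. At least 2-fold lower were 6, against 2.47% of all genes tested, in a list chosen with earlier results of these data known. Their summed level was 70.1 RPM in WT and 29.9 in MD43. It included *Lhx5*, at 34.6 and 15.9 RPM, and *Barhl2*, at 11.4 and 0.19. *Foxb1* was at 58.8 reads in WT and 1.34 in MD43, at least 27.3-fold lower. Neural epithelium markers were level, at 949 and 942 RPM in sum. Of the surface ectoderm markers 7 of 8 were higher, with a summed level of 287 and 434 RPM. All 5 red blood cell markers were higher, at 2037 and 3844 RPM, and endothelial markers were at 48.1 and 44.7. As background, SHH is made in the ventral forebrain and in facial ectoderm. The part of these marker differences in the Hedgehog differences was not tested.

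The mutated gene itself, *Smchd1*, was at 3.31 log2 RPKM in WT and 3.30 in MD43, which does not check the labels, because a missense allele is still transcribed. The implied depth was a geometric mean of 16055882 reads per library in WT and 22328791 in MD43.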

How the data were processed

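RNA-seq was made from the FNPs of 2 WT and 2 MD43 embryos, grouped as labelled. The authors used Trim Galore 0.4.4 on the reads, mapped them with HISAT2 2.0.5 to GRCm38.p6 and quantified them in SeqMonk. The deposited values are log2 RPKM, scaled by the authors to depth and transcript length, with 1 merged column per genotype. The table holds 19 autosomes and no sex chromosomes. It also holds the authors' fold change, FDR and average columns, which were not used. Columns of other samples numbered 0.

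Rows were joined to GENCODE M21, and 33101 matched by symbol and position. A library without reads was taken as 0.9 reads, which gives the product of the 2 read counts of a genotype. In products from 1000 to 10000, 99.4% (WT) and 99.5% (MD43) were whole numbers, where random scaling would give 0.318%. From 100000 to 1000000, the range of *Gli1*, 95.6% and 97.0% were whole, where random scaling would give 32.4% and 34.0%. In that range the tolerance is a larger part of 1, so a whole number is a weaker check. Products up to 1000000 were factorised with a relative tolerance of 4e-07, and this was tested on simulated data. The depth ratio and spread of libraries were fitted to genes with 1 pair. Genes reaching 10 reads in WT or MD43 were set against limits of 2-fold and 1.5-fold. With no values per library there is no significance test. Fits with the counts of single libraries, leave-one-out and blocked fits were planned as alternatives and could not be made. Counting SE assumes Poisson error, and its 95% interval is 1.96 SE. Alternatives were pseudocounts of 0.1 and 1 RPKM, other filters, centring, and trends over level and over GC content and length. Promoter windows are RefSeq's.

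The 9 genes are those of the pathway core. From each other pathway list, genes past 2-fold with at least 10 reads are named, and otherwise the highest and the lowest; further genes were named after their values were seen. A result that this rule would name is not reported here. The members and lists were chosen with earlier results of these data known. Python 3.11.15, numpy 2.4.6, pandas 2.3.3, scipy 1.17.1 and statsmodels 0.14.6 were used.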

Additional observations from a re-analysis of the deposited data

How the results depend on the processing

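No paired analysis was possible because the values analysed here are merged over libraries, and no library could be left out. The 9 genes were recomputed under 5 alternatives each, and 42 of these 45 values stayed within the 95% counting interval. The exceptions were *Hhip* at -0.19 with a pseudocount of 1 RPKM, which exceeds its level in both genotypes, and, after subtraction of the trend over level, *Smo* at 0.11 and *Gli3* at 0.26. All 9 kept their sign, although *Gli2* was within 0.08 of 0. The 30 recomputed list medians stayed within the counting interval of a median member. That limit was loose for the ventral neural list, at 0.56 to either side, where the recomputed medians ran from -0.64 to -0.53. The count of the 9 genes past 2-fold was 0 under every filter and scaling tried, and 2 with the 1.5-fold minimum, also with at least 50 reads in both genotypes. The count of all tested genes past 2-fold was 632. It was 1641 at 1.5-fold, 293 with at least 10 reads in both genotypes, 2097 with no filter, 107 at a mean of 0 log2 RPKM or more, 40 with a pseudocount of 1 RPKM and, chosen after seeing the data, 85 with at least 50 reads in both genotypes and 425 with 1.5-fold and that minimum. Depth limits *Hhip* and the ventral neural genes *Foxa2*, *Nkx2-2*, *Nkx2-9* and *Nkx6-1*, and less so *Nkx2-1* and *Olig2*. The spread between embryos, known for few genes, limits all.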

Other observations

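The 2 WT libraries differed more from each other than the 2 MD43 libraries did. The SD of the log2 ratio of their counts, over genes with a single possible pair, was 0.32 in WT and 0.21 in MD43 between 316 and 1000 reads, 0.43 and 0.29 between 100 and 316 reads, and 0.48 and 0.41 between 32 and 100 reads. By their labels the WT embryos differ in sex and mother, and the MD43 embryos in mother alone, but a supplementary record of the study names both WT embryos as female.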
